A study of Mus musculus with 18 samples.

Results

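Doxycycline-induced LIP, the short isoform of the transcription factor C/EBPβ, was examined in B16 F10.9-4 mouse melanoma cells that had received no tunicamycin. The comparison used 6 of the 18 arrays of the series, namely the 3 arrays of cells given doxycycline to overexpress LIP and the 3 arrays of cells given vehicle. All other groups carry tunicamycin, an inhibitor of N-linked glycosylation that loads the endoplasmic reticulum (ER) with unfolded protein: at 5 h and again at 12 h, cells given doxycycline and tunicamycin stand against cells given tunicamycin alone. Every group came from the same B16-derived line, was grown in DMEM with serum, and held 1 array from each of 3 independent experiments. The dose and duration of doxycycline, and whether the line is a single clone, were not given in the sources used here. No doxycycline array of cells without the LIP construct was used, so an action of the drug itself, which is known to block mitochondrial ribosomes, cannot be told apart from that of LIP.

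C/EBPβ is a leucine-zipper transcription factor whose messenger RNA is translated from several in-frame start codons. The longer products activate transcription, whereas LIP keeps the DNA-binding and dimerisation parts but lacks most of the activating part, so that it can occupy the same sites and pair with the same partners, among them CHOP and ATF4. In melanocytes the pigment programme is run by MITF, which binds M-box sequences in front of pigment genes, and it answers to melanocyte-stimulating hormone through the receptor MC1R and cyclic AMP.

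Levels are log2 intensities as the authors deposited them after RMA, and a change is the doxycycline mean minus the vehicle mean on that scale, given with its standard error (SE). Of 19938 genes, 2135 (10.7%) passed limma's test at an adjusted p of 0.05, with 974 (4.89%) higher and 1161 (5.82%) lower after doxycycline. Most changes were small: 1179 of the called genes changed at least 1.2-fold, 107 at least 1.5-fold and 16 (0.0802% of genes) at least 2-fold. The smallest change called was 0.13 and the median change of all genes was 0.02. With the genes split by level into 5 groups of equal size, 0.527% rose and 0.201% fell in the dimmest group, while 7.10% rose and 10.3% fell in the brightest and 8.55% rose and 12.6% fell in the next brightest. Arrays within a group correlated at r = 0.9989 to 0.999 across genes, and doxycycline with vehicle arrays at r = 0.9972 to 0.9976. The split between higher and lower depended on the scale, with 587 higher and 1761 lower once the array medians, which differed by 0.05, were set equal. Leaving out vehicle replicate 1 left 1379 calls, leaving out experiment 1 left 807 and leaving out experiment 3 left 652. These are bulk cultures, in which fewer cells of a kind and less RNA per cell cannot be told apart.

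The induced gene gave the largest change among the genes with a probe set of a single symbol; 2 probe sets that list several symbols changed more. Cebpb read 11.02, 11.27 and 11.24 in the doxycycline arrays, against 9.26, 9.26 and 9.48 in the vehicle arrays. The groups stood far apart, by 1.84 ± 0.07 (SE, adjusted p = 2.02e-11), a 3.59-fold difference with a 95% interval of 1.70 to 1.99 on the log2 scale. The probe set reads Cebpb messages as a whole and does not separate LIP from the longer isoforms.

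The partners and relatives of C/EBPβ moved little. Of the 6 measured C/EBP family genes, Cebpb rose and Ddit3, which encodes the partner CHOP, fell by 0.35 (adjusted p = 0.0108), with 8.42, 8.31 and 8.40 after doxycycline, against 8.83, 8.49 and 8.84 after vehicle. Cebpd differed by 0.22 (adjusted p = 0.0641), Cebpa by 0.11, Cebpg by -0.08 and Cebpe by 0.03, none of which passed. Atf4, another partner and the main factor of the amino acid response, rose by 0.36 (adjusted p = 0.000618), with 10.19, 10.12 and 10.12 against 9.81, 9.69 and 9.85. Atf3 read 8.80 ± 0.05 after doxycycline and 8.85 ± 0.12 after vehicle (SD, n = 3 each), and the groups overlapped. Of 25 measured genes known as C/EBPβ targets in liver, fat or immune cells, 0 passed in limma's test in either direction (1 higher and 0 lower at an unadjusted p under 0.05), and their changes lay between -0.16 (Lpin1) and 0.15 (Il1b). Among the clock and PAR leucine-zipper genes 4 rose and 5 fell of 17. Those that fell included Bhlhe41 (-0.85), Ciart (-0.61), Bhlhe40 (-0.41) and Cry1 (-0.25), and Per2 (0.36), Dbp (0.30), Per3 (0.25) and Nfil3 (0.25) rose.

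After Cebpb, the largest rises were in genes of redox metabolism, secreted and surface proteins and contractile filaments. Cbr2, a mitochondrial carbonyl reductase, read 10.53, 10.31 and 10.48 after doxycycline, against 8.63, 8.61 and 8.86 after vehicle, a 3.34-fold rise. Fstl1, a secreted follistatin-like glycoprotein, read 10.04, 9.99 and 9.93 against 8.60, 8.32 and 8.50, a 2.86-fold rise. Jam2, a junctional adhesion molecule, read 10.45, 10.57 and 10.46 against 9.10, 9.07 and 9.33, a 2.51-fold rise. In each of these genes the lowest doxycycline array lay more than 1 log2 unit above the highest vehicle array. The receptor gene Lifr, through which leukaemia inhibitory factor signals, read 8.08, 8.25 and 8.19 against 6.997, 7.09 and 7.12. The smooth muscle actin gene Actg2 read 8.74, 8.63 and 8.79 against 7.62, 7.66 and 7.76. Both rose more than 2-fold, by 1.11 ± 0.07 and 1.04 ± 0.10 on the log2 scale (adjusted p = 2.34e-08 and 2.27e-06).

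The other genes among the 25 largest rises fell into a few kinds of function. C1s1, a complement protease, rose by 1.33, with means of 6.56 and 5.23, of which the second lay below 6.07, the 95th percentile of 1194 olfactory and vomeronasal receptor genes that stand in for silent genes here. Enzymes among them were the methionine sulfoxide reductase Msrb3 (1.11), the glutathione transferase Gstm7 (1.04), the diacylglycerol kinase Dgka (0.95), the aldehyde dehydrogenase Aldh3b1 (0.95), the kinase Dmpk (0.94) and the glycosyltransferase Gcnt2 (0.77). Matrix and surface proteins were Col10a1 (0.87), a collagen of growth-plate cartilage, Thbs1 (0.80), the adhesive glycoprotein thrombospondin, and the receptor phosphatase Ptprd (0.76). Vdr, the nuclear vitamin D receptor, read 8.12, 7.97 and 8.04 after doxycycline, against 7.34, 7.28 and 7.26 after vehicle. The remaining rises were Cfap100 (1.11), Spata9 (0.88), Calhm5 (0.86), the interferon-inducible GTPase gene Gbp7 (0.81), Wfdc13 (0.79), Niban1 (0.77), Ehd2, an ATPase of caveolae (0.77), and Trp53inp2, an autophagy factor (0.74).

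The largest falls were led by a vesicle protein, a prostaglandin enzyme and regulators of signalling. Syt4, a synaptotagmin of secretory vesicles, read 8.77, 8.76 and 8.76 after doxycycline, against 10.12, 10.00 and 10.05 after vehicle, 2.45-fold lower. Hpgds, which makes prostaglandin D2, read 9.41, 9.18 and 9.38 against 10.57, 10.41 and 10.57, 2.29-fold lower. Nr4a3, an orphan nuclear receptor induced by cyclic AMP, read 7.94, 7.66 and 7.91 against 8.997, 8.88 and 9.08, 2.22-fold lower. No array of these genes crossed between the groups. Over all genes, 16.5% had all 3 doxycycline arrays below all 3 vehicle arrays. Dusp4, a phosphatase that switches off MAP kinases, fell by 1.04 ± 0.08, Bnc2, a zinc finger factor of pigment cells, by 1.01 ± 0.11, and Abca12, a lipid transporter, by 0.99 ± 0.07. Next came the planar polarity gene Prickle1 (-0.95) and the neutral amino acid transporter gene Slc1a4 (-0.95).

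Several other genes among the 25 largest falls belong to pigment cells. Mc1r (-0.95), Tspan10 (-0.92), Bace2, a protease that trims the melanosome fibril protein (-0.92), the exchanger gene Slc24a4 (-0.79) and the melanosome receptor gene Gpr143 (-0.69) were among them. The remaining ones were Myc (-0.93), the sialyltransferase St3gal1 (-0.89), Bhlhe41 (-0.85), the spindle-orientation gene Insc (-0.81), the proton channel Hvcn1 (-0.70), the ubiquitin ligase Fancl (-0.70), Ano3 (-0.70), the ER degradation factor Herpud1 (-0.68), Cpne4 (-0.67), the cyclic GMP phosphodiesterase Pde9a (-0.67), Fyb (-0.64) and Deptor, an inhibitor of mTOR (-0.64). For St3gal1 a second, dimmer probe set did not follow, at 7.16 after doxycycline and 7.12 after vehicle.

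**Figure D1:**
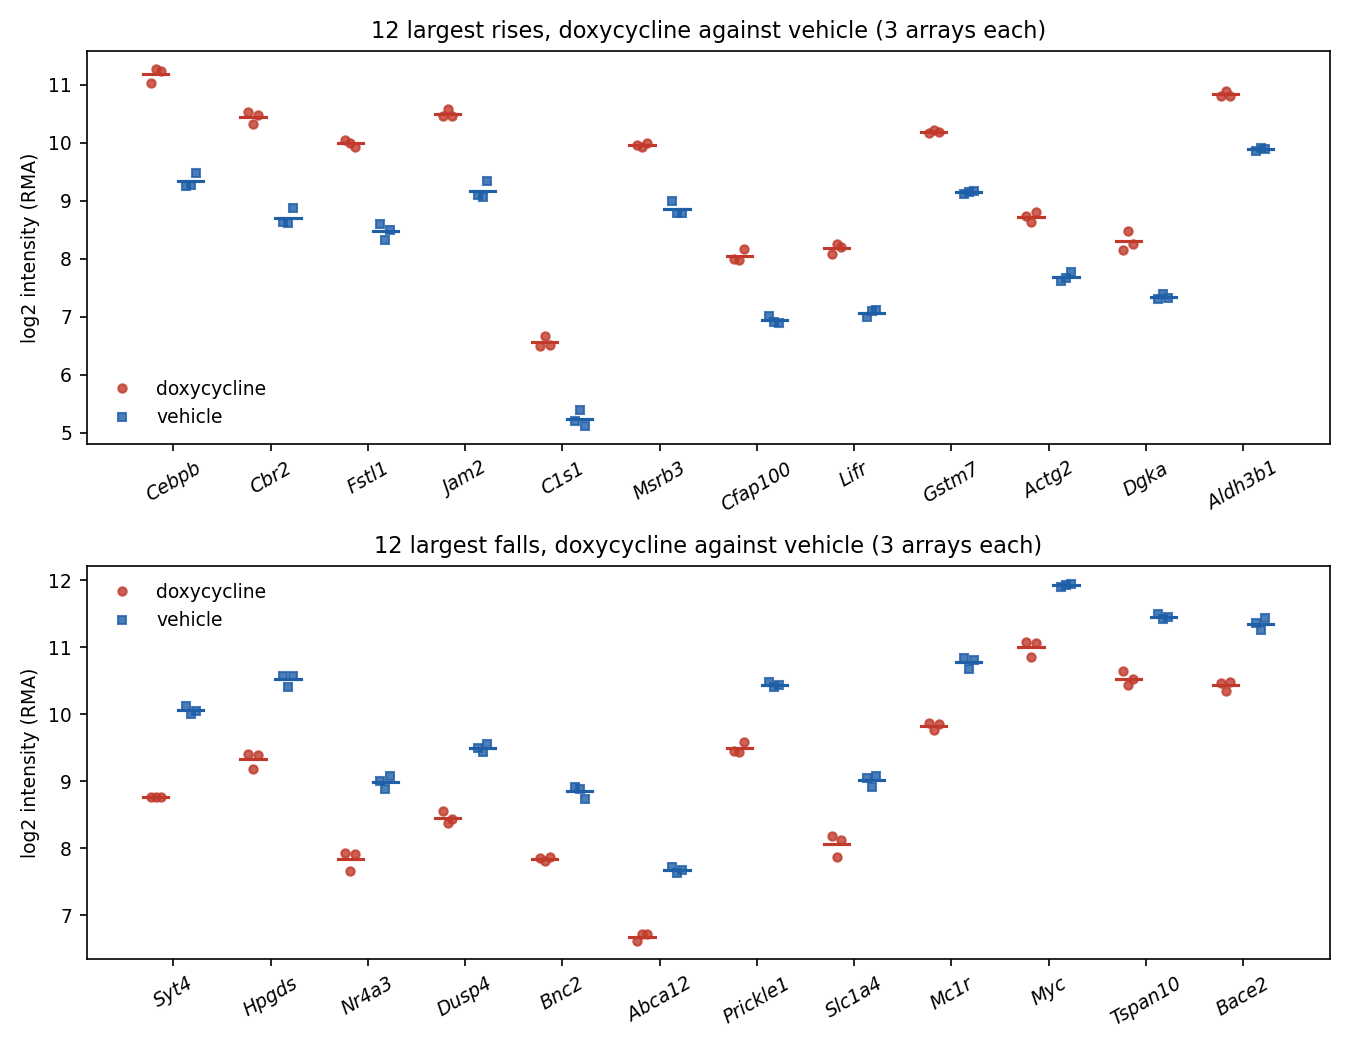
Levels of the 12 named genes with the largest rises (top) and the 12 with the largest falls (bottom), as log2 intensity after RMA, with 1 point per array (circles doxycycline, squares vehicle, 3 arrays each) and a bar at each mean. Clone-named genes are left out, among them 1810065E05Rik, which fell more than any gene shown. The groups do not overlap in any of these 24 genes, which were chosen for their change. Over all genes, all 3 doxycycline arrays lay above all 3 vehicle arrays in 17.7% and below them in 16.5%. Cebpb sits at 11.18 after doxycycline and 9.33 after vehicle, and Syt4 at 8.76 and 10.06.

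Pigment cell genes fell by unequal amounts, from 1.01 for Bnc2 down to 0.19 for Dct on the log2 scale. The labelled cell type showed its defining genes, with Tyrp1, Dct, Pmel and Mlana all above 12 in every array. Of 16 measured melanocyte transcription factors 4 fell and 0 rose. In this and every later list with 0 calls in a direction, 0 members had an unadjusted p under 0.05 in that direction either, with the exception named below. Mitf read 11.75, 11.71 and 11.77 after doxycycline, against 12.33, 12.33 and 12.38 after vehicle, 1.52-fold lower (adjusted p = 3.67e-06), and its second probe set differed by -0.65. Pax3 fell by 0.35 and Sox5 by 0.34, both factors of early melanocytes. Sox10, the neural crest factor above Mitf, read 10.98, 10.98 and 10.90 against 11.04, 11.10 and 11.04, and its difference of -0.10 did not pass (adjusted p = 0.213). Tfap2a (-0.17), Sox9 (-0.05), Snai2 (-0.17) and Lef1 (0.14) did not pass either.

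Among 10 receptors and ligands of melanocytes 4 fell and 1 rose. Mc1r read 9.87, 9.77 and 9.85 after doxycycline, against 10.84, 10.68 and 10.80 after vehicle, 1.93-fold lower. Gpr143 fell by 0.69, the neuregulin receptor Erbb3 by 0.58 and the hepatocyte growth factor receptor Met by 0.41. Kitl, the ligand of KIT, rose by 0.39, but its means of 6.12 and 5.72 lie about the level of silent genes, as do those of Kit (5.90 and 5.74) and Ednrb (5.71 and 5.70).

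Of the 14 pigment synthesis and melanosome matrix genes 10 fell and 0 rose, with a median of -0.27. The ion carriers changed most: Slc24a4 by -0.79, Slc24a5 by -0.60, the channel gene Trpm1 by -0.47 and Slc45a2 by -0.42. Slc24a5 read 11.77, 11.74 and 11.80 after doxycycline, against 12.39, 12.32 and 12.38 after vehicle. Tyr, the rate-limiting enzyme of melanin synthesis, read 6.83, 6.79 and 6.82 against 7.23, 7.22 and 7.37, 1.38-fold lower (adjusted p = 0.0034). The melanosome matrix genes Mlana and Pmel each fell by 0.32, Mreg by 0.23, Ptgds by 0.20 and Dct, an enzyme downstream of tyrosinase, by 0.19. Tyrp1 read 13.57, 13.61 and 13.56 against 13.68, 13.66 and 13.67, a difference of -0.09 that did not pass (adjusted p = 0.224). Gpnmb (-0.12), Oca2 (-0.04, below the level of silent genes) and Atp7a (0.08) did not pass.

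Of 32 genes of melanosome assembly and transport 8 fell and 1 rose. The GTPase genes Rab32 (-0.63) and Rab27a (-0.61), which act in melanosome assembly and in its capture at the cell edge, fell most. Rab32 read 9.77, 9.75 and 9.75 after doxycycline, against 10.37, 10.37 and 10.42 after vehicle. Mlph (-0.41) and Myo5a (-0.21), which with Rab27a link melanosomes to actin, also fell, as did Hps3 (-0.45), Lyst (-0.36), Dtnbp1 (-0.24) and Hps5 (-0.21). Sytl2, a Rab27 effector, rose by 0.25.

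**Figure D2:**
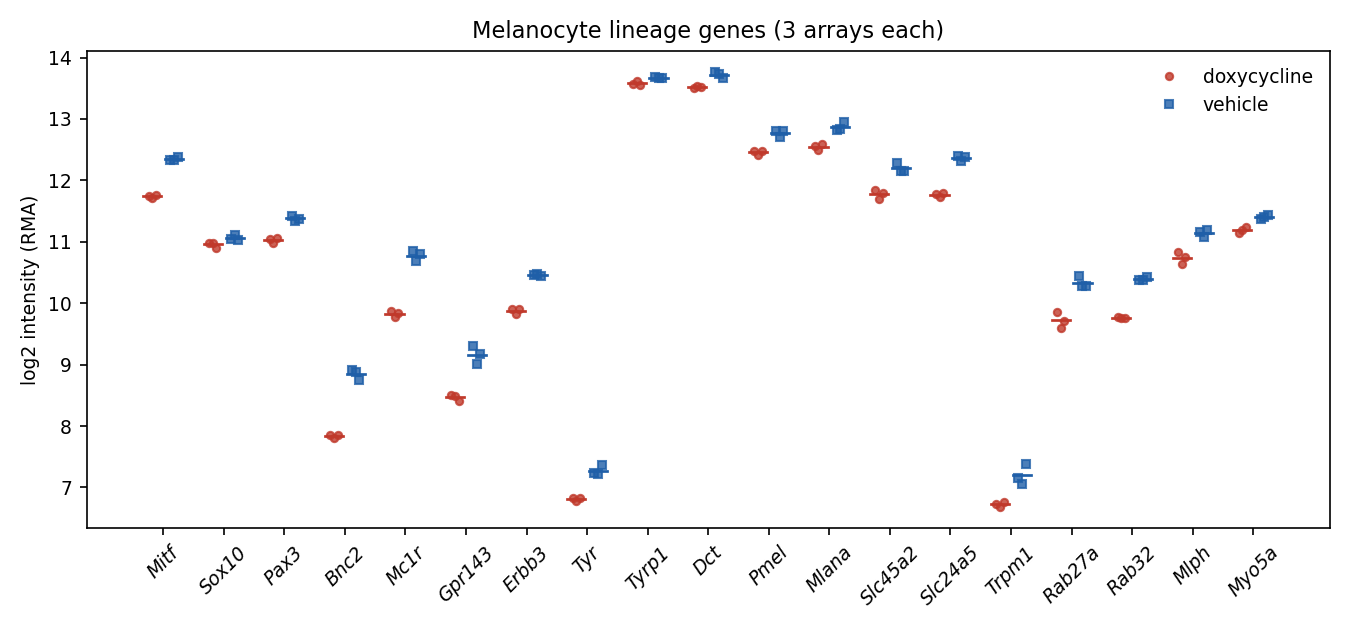
Log2 intensity of 19 melanocyte lineage genes in each array, doxycycline (circles) left of vehicle (squares), with bars at the means of 3 arrays. Transcription factors come first, then receptors, pigment synthesis genes and transport genes; Mitf lies at 11.74 after doxycycline and 12.34 after vehicle, while Sox10 (10.96 and 11.06) and Tyrp1 (13.58 and 13.67) lie close together.

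The start regions of 4 genes, taken from RefSeq on build GRCm38.p6, show the M-box that MITF is known to bind. They were chosen to set Tyr, Mc1r and Hpgds, which fell, beside Tyrp1, which did not pass. All 4 were picked among genes whose start region holds the M-box, so its presence in each line was fixed by the choice. Of the genes with a RefSeq start region, 5 of 11 pigment synthesis genes and 4 of 16 of the largest falls hold it. Each line gives the 100 bases before the annotated start, 5′ to 3′ on the gene's strand, with the letters TCATGTG in capitals.
Mc1r, chr8:123406982-123407081, plus strand: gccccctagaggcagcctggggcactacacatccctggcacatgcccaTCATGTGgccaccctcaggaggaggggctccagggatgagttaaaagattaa
Tyr, chr7:87493513-87493612, minus strand: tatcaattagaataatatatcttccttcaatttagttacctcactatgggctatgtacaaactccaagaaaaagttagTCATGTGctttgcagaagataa
Hpgds, chr6:65144731-65144830, minus strand: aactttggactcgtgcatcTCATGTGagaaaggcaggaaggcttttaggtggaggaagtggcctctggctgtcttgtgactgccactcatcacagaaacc
Tyrp1, chr4:80834113-80834212, plus strand: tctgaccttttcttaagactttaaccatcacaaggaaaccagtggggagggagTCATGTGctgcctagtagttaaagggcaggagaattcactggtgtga
Counted from the start, the letters begin at -52 in Mc1r, -22 in Tyr, -81 in Hpgds and -47 in Tyrp1.

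Matches were counted in RefSeq windows from 250 bases before to 50 after each start, which 15614 of the 19938 genes have, with 19177 windows in all, on both strands. TCATGTG was in 38.5% of the 13 windows of pigment synthesis genes and in 21.1% of the 19 windows of the 25 largest falls, against 2.82% of all windows. In the second set the genes were Mc1r, Hpgds, Tspan10 and Cpne4. Over all genes called lower TCATGTG was in 2.80% of windows, and over those called higher in 2.34%, so neither exceeded the share of all windows. The C/EBP letters TTGCNNAA were in 9.17% of the windows of genes called higher and 9.19% of those called lower, against 9.75% of all windows. By list they were in 3 of the 13 pigment synthesis windows (23.1%) and 4 of the 21 of melanocyte transcription factors (19.0%). They were in 0 of the 9 windows of melanocyte receptors and ligands and 1 of the 19 of the largest falls. In Tyr they begin at -13, within the line shown, as ttgcagaa. The composite C/EBP and ATF letters TGATGCAA were in the windows of Fancl, Herpud1 and Slc1a4, 15.8% of the 19 windows of the largest falls, against 0.704% of all windows. Over all genes called lower they were in 0.613% of windows, and over those called higher in 0.809%. These counts describe letters near starts, and the sets were picked by their change.

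Genes of ribosome production fell together. Of 35 measured genes 25 fell and 0 rose, with a median of -0.25, beside 10.3% of genes called lower in the brightest of the 5 level groups. The falls ran from -0.15 to -0.44. Gnl3, the nucleolar GTPase nucleostemin, read 10.83, 10.99 and 10.81 after doxycycline, against 11.33, 11.25 and 11.37 after vehicle. Polr1b, the second largest subunit of RNA polymerase I, read 11.18, 11.21 and 11.18 against 11.58, 11.54 and 11.60. Rrp1b (-0.41), Tsr1 (-0.38), Rrp9 (-0.36) and Wdr12 (-0.36), which process or assemble preribosomes, the pseudouridine synthase gene Dkc1 (-0.30) and the methyltransferase gene Fbl (-0.28) also fell. Npm1 (-0.13, adjusted p = 0.453) and Polr1a (-0.09) did not pass. Myc, a known activator of such genes, read 11.07, 10.86 and 11.07 against 11.90, 11.93 and 11.95, 1.90-fold lower (adjusted p = 3.39e-08).

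Genes of the G1/S step and DNA replication fell as well, while those of mitosis differed little. Of 48 measured G1/S genes 27 fell and 0 rose, with a median of -0.22; among 43 mitosis genes 1, the checkpoint kinase gene Ttk (-0.24), fell, with a median of -0.05. Cdk2, the S-phase kinase, read 11.48, 11.40 and 11.46 after doxycycline, against 11.97, 11.93 and 11.94 after vehicle. The origin licensing genes Cdc6 (-0.47), Orc1 (-0.47), Cdt1 (-0.36), Mcm3 (-0.35) and Mcm4 (-0.32) and the phosphatase gene Cdc25a (-0.41) fell. Ccnd1 fell by 0.20, and E2f1 (-0.18) did not pass. The E2F letters TTTGGCGC or TTTCCCGC were in 33.3% of the 48 windows of the G1/S genes, against 2.21% of all windows. Of 30 genes of CDK inhibition and the p53 response, Pltp (0.43) and Rb1 (0.28) rose and Aen (-0.39) and Zmat3 (-0.28) fell (2 rose and 5 fell with array medians set equal). The 6.67% called in each direction is near the 4.89% of all genes called higher and the 5.82% called lower.

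Genes fed back by MAP kinase and cyclic AMP signalling changed in part. Of 24 measured MAP kinase feedback genes 5 fell and 2 rose. The phosphatase genes Dusp4 (-1.04), Dusp2 (-0.35), Dusp10 (-0.32) and Dusp7 (-0.19) and Phlda1 (-0.29) fell, and Spred3 (0.41) and Etv1 (0.32) rose. Dusp4 read 8.55, 8.37 and 8.44 after doxycycline, against 9.49, 9.43 and 9.56 after vehicle. Dusp6, the ERK-specific phosphatase, read 10.54, 10.53 and 10.50 against 10.69, 10.51 and 10.53, with overlapping groups. Of 25 NR4A and cyclic AMP genes 6 fell and 2 rose; besides Nr4a3 the salt-inducible kinase Sik1 (-0.48) and the phosphodiesterases Pde4d (-0.37), Pde10a (-0.22) and Pde4b (-0.20) fell, and Pde4a (0.39) and Ppargc1a (0.26) rose. Nr4a1 (-0.06) and Nr4a2 (0.03) did not pass. Among 26 immediate early factors Myc (-0.93) and Klf10 (-0.33) fell and Srf (0.24) rose (0 rose and 3 fell with array medians set equal). The 3.85% called higher and 7.69% called lower are near the 4.89% and 5.82% of all genes.

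Some genes of the ER folding machinery fell after doxycycline before any stressor was added. Of 26 ER chaperone genes 10 fell, 1 rose and 15 did not pass, with a median of -0.13. The falls ran from Fkbp11 (-0.48), Hyou1 (-0.39), Creld2 (-0.38) and Sdf2l1 (-0.38) to Hspa5, the master chaperone BiP (-0.22), Hsp90b1 (-0.19) and Calr (-0.18). Hspa5 read 12.64, 12.72 and 12.70 after doxycycline, against 12.90, 12.89 and 12.92 after vehicle. Of 20 disulfide isomerases and oxidases 7 fell, 2 rose and 11 did not pass, with Pdia5 (-0.45), Pdia6 (-0.35) and Ero1b (-0.32) lowest. Among 14 stress sensors and factors Xbp1, spliced by the sensor IRE1, fell by 0.39 and Ern1, which encodes IRE1, by 0.45, while Atf4 and the protease gene Mbtps1 (0.17) rose. Xbp1 read 11.06, 10.96 and 11.01 against 11.43, 11.37 and 11.43. Eif2ak3, which encodes the sensor PERK (-0.11), and Atf6 (0.12) did not pass. Of 27 genes of ER-associated degradation Herpud1 fell and Rhbdd1 (0.34) and Wfs1 (0.26) rose (1 rose and 3 fell with array medians set equal). The 7.41% called higher and 3.70% called lower are near the 4.89% and 5.82% of all genes.

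Genes downstream of ATF4 went both ways. Among 19 measured targets of PERK, ATF4 and CHOP there were 4 rises and 2 falls (3 and 3 with array medians set equal): Pck2 (0.56), a mitochondrial enzyme of gluconeogenesis, Atf5 (0.49), Sesn2 (0.40) and Cdsn (0.20) rose, and Ndrg1 (-0.35) and Nupr1 (-0.34) fell. Trib3 (0.09), Chac1 (-0.16) and Ddit4 (-0.01) did not pass. Of 34 genes of amino acid synthesis and transport 9 fell and 4 rose. The glycine transporter gene Slc6a9 read 10.82, 10.79 and 10.75 after doxycycline, against 10.14, 10.19 and 10.20 after vehicle. Cth (0.38), Mthfd2 (0.30) and Asns (0.19) also rose. Slc1a4 read 8.19, 7.88 and 8.12 against 9.05, 8.91 and 9.07. Glutamine synthetase Glul (-0.53), the folate enzymes Aldh1l2 (-0.41) and Shmt1 (-0.40) and the transporters Slc7a5 (-0.34) and Slc7a11 (-0.34) fell with it.

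**Figure D3:**
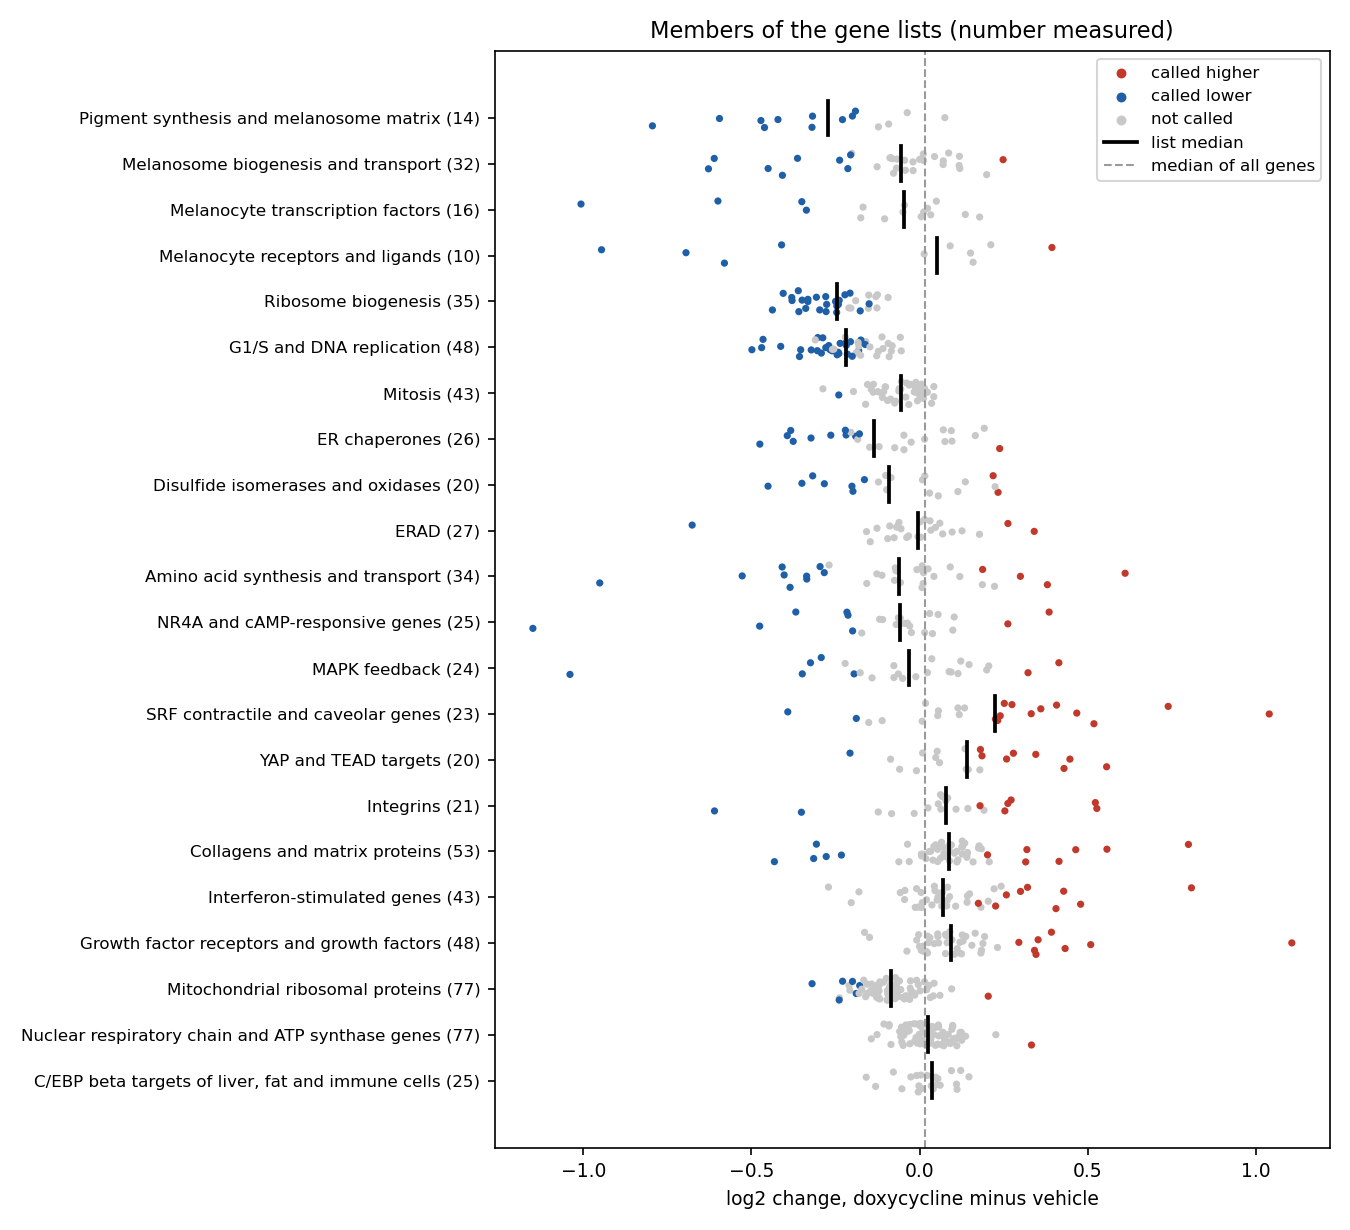
Log2 change, doxycycline minus vehicle, of each measured member of 22 gene lists, with the number measured in brackets. Points are genes (coloured where limma's adjusted p was under 0.05), black bars are list medians and the dashed line is the median of all genes (0.02); the medians of pigment synthesis (-0.27), ribosome biogenesis (-0.25) and G1/S genes (-0.22) lie below it and that of SRF contractile genes (0.23) above it.

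Of 23 contractile and caveolar genes of the kind driven by SRF 12 rose, 2 fell and 9 did not pass, with a median of 0.23. Besides Actg2 these were Lmod1, an actin nucleator of smooth muscle (0.74), Cnn2, a calponin (0.52), Vcl, vinculin (0.47), Cavin1 (0.41), Zyx, zyxin (0.36), Actn1 (0.33), Flna (0.27), Myl9 (0.25), Tpm1 (0.24), Myh9 (0.23) and Tpm4 (0.23). Cnn2 read 12.38, 12.33 and 12.32 after doxycycline, against 11.83, 11.82 and 11.83 after vehicle. Cav1, the caveolin of the caveolar coat, went the other way, with 7.74, 7.69 and 7.72 against 8.14, 8.07 and 8.12, and Filip1l fell by 0.19. The smooth muscle genes Acta2 (0.13), Tagln (0.05) and Cnn1 (0.11) did not pass. Of 20 YAP and TEAD targets 8 rose and 1 fell, with a median of 0.14; Crim1 (0.56), Tead3 (0.45), Ccn2 (0.43) and Gadd45b (0.35) led them, and Ccn1 (0.14) and Ankrd1 (0.01) did not pass.

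Integrin and matrix genes changed in both directions. Of 21 integrin subunits 6 (28.6%) rose and 2 (9.52%) fell. The α5 subunit gene Itga5 of the fibronectin receptor read 7.02, 6.98 and 6.76 after doxycycline, against 6.25, 6.35 and 6.58 after vehicle. The α4 subunit gene Itga4 read 10.12, 10.12 and 10.24 against 10.74, 10.80 and 10.76. Itga1 (0.52), Itga2 (0.27), Itgb8 (0.26), Itga6 (0.25) and Itgb5 (0.18) rose, and Itga9 fell by 0.35. Of 53 collagens and matrix proteins 7 (13.2%) rose and 5 (9.43%) fell, against 4.89% and 5.82% of all genes and 7.10% and 10.3% of the brightest group. The laminin chains Lamb1 (0.56), Lama5 (0.46) and Lamb2 (0.32), Thbs1, Col4a5 (0.41), fibronectin Fn1 (0.32) and Agrn (0.20) rose, and Nid1 (-0.43), Fbln1 (-0.32), Col1a2 (-0.31), Matn2 (-0.28) and Col15a1 (-0.23) fell. Of 34 matrix-modifying enzymes 6 rose, led by the aggrecanase gene Adamts4 (0.56) and the urokinase receptor Plaur (0.45), and 2 fell. Of 30 dedifferentiation and mesenchymal genes 4 rose and 0 fell, namely Fstl1, the receptor kinase gene Axl (0.53), S100a6 (0.45) and Tcf4 (0.19). Zeb1 (0.00) and Twist2 (0.03) did not pass.

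Receptors of secreted factors were among the genes that rose. Of 48 growth factors and their receptors 8 rose and 0 fell, where 2 were lower at an unadjusted p under 0.05 and 2 were called lower with array medians set equal; after Lifr came the growth hormone receptor Ghr (0.51), Fgfr3 (0.43), Bdnf (0.39), Pdgfa (0.35), Irs1 (0.35), Fgf1 (0.34) and Vegfc (0.30). Of 43 cytokine and NF-kB genes 6 rose and 1 fell. Stat3, which transmits signals of the LIF family, read 11.03, 11.004 and 10.995 after doxycycline, against 10.53, 10.47 and 10.41 after vehicle, and Osmr, the oncostatin M receptor, rose by 0.34. The chemokine gene Cxcl10 fell by 0.30. Among 43 genes stimulated by interferon 9 were called higher and 0 lower, with the RNA sensor genes Ddx58 (0.48) and Ifih1 (0.41) and Isg20 (0.43) after Gbp7. Of 13 antigen presentation genes the peptide editors Tapbpl (0.70) and Tapbp (0.31) rose and Cd274, which encodes PD-L1, fell by 0.41. Of 51 axon guidance genes 7 rose, with Slit2 (0.64) first, and 6 fell, with the semaphorin gene Sema3d (-0.46) lowest. Of 37 Wnt and Notch genes Fzd2 (0.53), Hes1 (0.38), Tcf7l2 (0.24) and Jag1 (0.23) rose and 0 fell; of 40 TGF-beta and BMP genes 5 rose, with Id3 (0.40) first, and 3 fell, with Pmepa1 (-0.47) and Id2 (-0.38) lowest. With array medians set equal, falls outnumbered rises in the axon guidance list (5 rose, 7 fell) and the TGF-beta list (4 rose, 8 fell). On that scale 2 Wnt and Notch genes and 6 genes stimulated by interferon were called higher, and 0 of either list lower. On the deposited scale 12.5% of the TGF-beta list were called higher and 7.5% lower, against 4.89% and 5.82% of all genes.

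Redox and metal genes split by enzyme. Of 46 redox and carbonyl-reducing enzymes 9 rose and 5 fell. Cbr2 rose while its relative Cbr3 fell by 0.48, and the methionine sulfoxide reductases Msrb3 (1.11) and Msrb1 (0.64) rose. Among known targets of the oxidant sensor NRF2, Nqo1 rose by 0.40, Gclc fell by 0.30, and Hmox1 (-0.15) and Txnrd1 (-0.14) did not pass. The metallothionein genes Mt1 (-0.38) and Mt2 (-0.40) fell within a list of 24 zinc genes of which 6 fell and 1 rose. Mt1 read 12.06, 11.99 and 12.05 after doxycycline, against 12.39, 12.43 and 12.43 after vehicle. Of 20 prostaglandin genes Hpgds, the prostacyclin receptor Ptgir (-0.36) and Ptgds (-0.20) fell and Ptger1 (0.32) rose. Of 32 sterol and fatty acid genes 3 rose and 3 fell, with the sterol demethylase Cyp51 (-0.48) lowest (2 rose and 5 fell with array medians set equal). The 9.38% called in each direction is near the 7.10% called higher and 10.3% called lower in the brightest level group. Of 30 hypoxia and glycolysis genes the aldolase gene Aldoc rose by 0.58 and Pfkfb3 (-0.46) and Bhlhe40 fell. That is 3.33% higher and 6.67% lower, near the 4.89% and 5.82% of all genes. Of 31 synaptotagmin and exocytosis genes 3 rose and 2 fell (1 and 3 with array medians set equal). On the same scales 5 rose and 3 fell (3 and 3) of 46 lysosome and autophagy genes. For 28 BCL2 family and caspase genes 1 rose and 2 fell (0 and 5). Shares called higher and lower were 9.68% and 6.45%, 10.9% and 6.52%, and 3.57% and 7.14% in these lists. All genes stood at 4.89% and 5.82%, and the brightest level group at 7.10% and 10.3%. Of 44 cell adhesion genes 5 rose, with the neural adhesion genes Ncam1 (0.47) and L1cam (0.42) after Jam2, and 1, Cd44 (-0.26), fell.

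Because doxycycline itself blocks mitochondrial ribosomes, nuclear genes of that organelle were counted too. Of 77 mitochondrial ribosomal protein genes 6 fell, Mrpl44 (-0.32) most, and 1, Mrps16 (0.20), rose, with a median of -0.09. The 7.79% called lower is near the 5.82% of all genes. Called or not, 67 of the 77 changes were negative, against 8683 of 19938 over all genes. The count over all genes includes dim ones, and the change varied with level. Its median was -0.02 in the brightest of the 5 level groups, -0.03 in the next and 0.02 in the dimmest. The list median was -0.09, -0.06 and -0.09 in experiments 1, 2 and 3. Of 77 nuclear respiratory chain and ATP synthase genes 1 rose (Cox6a2, 0.33) and 0 fell, with a median of 0.03 and 26 negative changes. Of 18 mitochondrial chaperones and proteases Tfam (-0.28), which packages mitochondrial DNA, and Hspd1 (-0.16) fell, and 16 of the 18 changes were negative. Protein levels and mitochondrially encoded messages were not analysed here, and a part of the drug itself in these shifts was not tested.

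Markers of other cell types were counted as well. The mean level of 10 immune markers lay between 5.60 and 5.71 in doxycycline arrays, against 5.60 to 5.64 in vehicle arrays, and 2 of the 10 exceeded the silent-gene level of 6.07. Cd79a, a B cell gene, rose by 0.44 at means of 5.68 and 5.24, both under that level, and Cd68, a lysosomal protein of macrophages, fell by 0.43. For 7 endothelial markers (4 above that level) the means were 6.02 to 6.08 against 5.97 to 6.01, and for 7 keratinocyte markers (2 above it) 5.85 to 5.97 against 5.82 to 5.96; 0 of either list passed in limma's test. For 8 fibroblast markers (6 above it) the means were 6.78 to 6.79 against 6.72 to 6.79, and Col1a2 fell. For 4 Schwann cell markers (all 4 above it) they were 7.77 to 7.85 against 7.56 to 7.63, and S100b, which melanoma cells also make, rose by 0.63. Their part in the results was not tested.

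The same contrast was available on separate arrays after 5 and 12 h of tunicamycin, where 2386 genes (12.0%; 6.76% higher and 5.21% lower) and 2936 genes (14.7%; 6.95% higher and 7.77% lower) passed for doxycycline. Of the 2135 genes called without tunicamycin, 2038 (95.5%) had the same sign at 5 h and 1941 (90.9%) at 12 h. At 5 h 1316 of them (61.6%, and 55.2% of that time's calls) were called in the same direction, and 1200 (56.2%, and 40.9% of the calls) at 12 h. All 25 of the largest rises were called in the same direction at both times, as were 24 of the 25 largest falls at 5 h and 25 at 12 h. Pde9a was the exception at 5 h, with a change of -0.19 (adjusted p = 0.0990). In the opposite direction 2 genes were called at 5 h and 18 at 12 h. The effect itself differed from that without tunicamycin in 6 genes at 5 h (0.0301%) and in 367 at 12 h (1.84%).

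**Figure D4:**
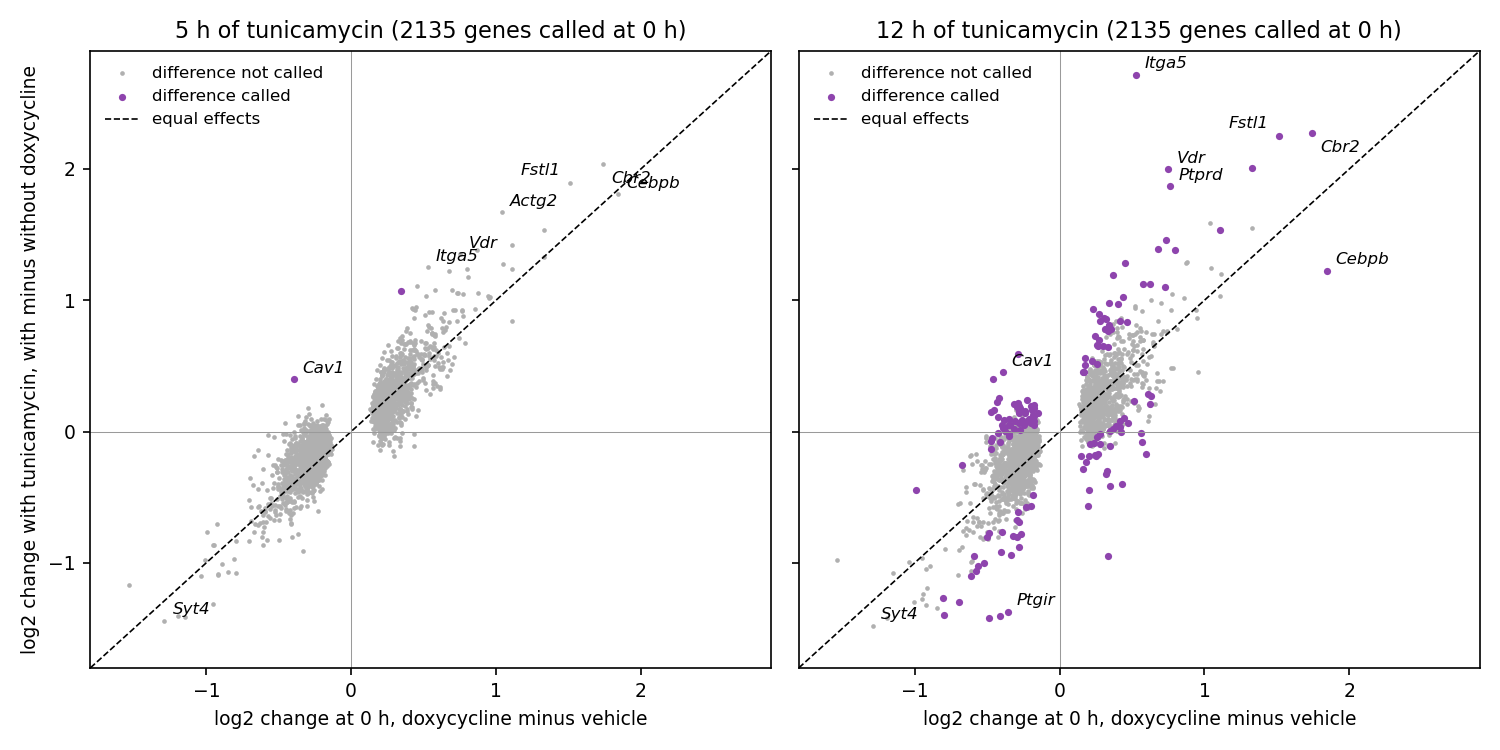
Doxycycline effect (log2) at 0 h on the x axis against the effect after 5 h (left) or 12 h (right) of tunicamycin on the y axis, for the 2135 genes called at 0 h, which share no arrays between the axes. Purple points are genes whose effects differed at an adjusted p of 0.05, and the dashed line marks equal effects; Itga5 (0.53 and 2.72) and Vdr (0.75 and 2.00) lie above it at 12 h, and Cav1 (-0.39) is above 0 at both times.

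A set of surface, matrix and nuclear receptor genes rose further under tunicamycin. The effect on Itga5 was 0.53, 1.25 and 2.72 at 0, 5 and 12 h, a difference of 2.19 between 12 and 0 h (adjusted p = 1.13e-07). For Vdr it was 0.75, 1.35 and 2.00, a difference of 1.25 (adjusted p = 5.32e-06), and for Ptprd 0.76, 0.93 and 1.87, a difference of 1.11 (adjusted p = 3.22e-08). Fstl1, Jam2 and Thbs1 also gained, by 0.74, 0.68 and 0.58. The effect on Cebpb was smaller at 12 h, at 1.22 against 1.84 at 0 h, where its level without doxycycline was 10.29 in tunicamycin arrays and 9.33 in vehicle arrays.

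Some effects turned over. Cav1 fell without tunicamycin (-0.39) and rose at 5 h (0.40) and 12 h (0.45), a difference of 0.79 at 5 h (adjusted p = 0.0197). The lipid-transfer gene Stard5 rose by 0.35 at 0 h and fell by 0.42 at 12 h, and Serpinf1, which encodes the secreted factor PEDF, was 0.20 and then -0.44. Falls that deepened at 12 h were those of Ptgir (-0.36, then -1.37), Pla2g2e, a secreted phospholipase (-0.49, then -1.42), and Aldh1l2 (-0.41, then -1.41).

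**Figure D5:**
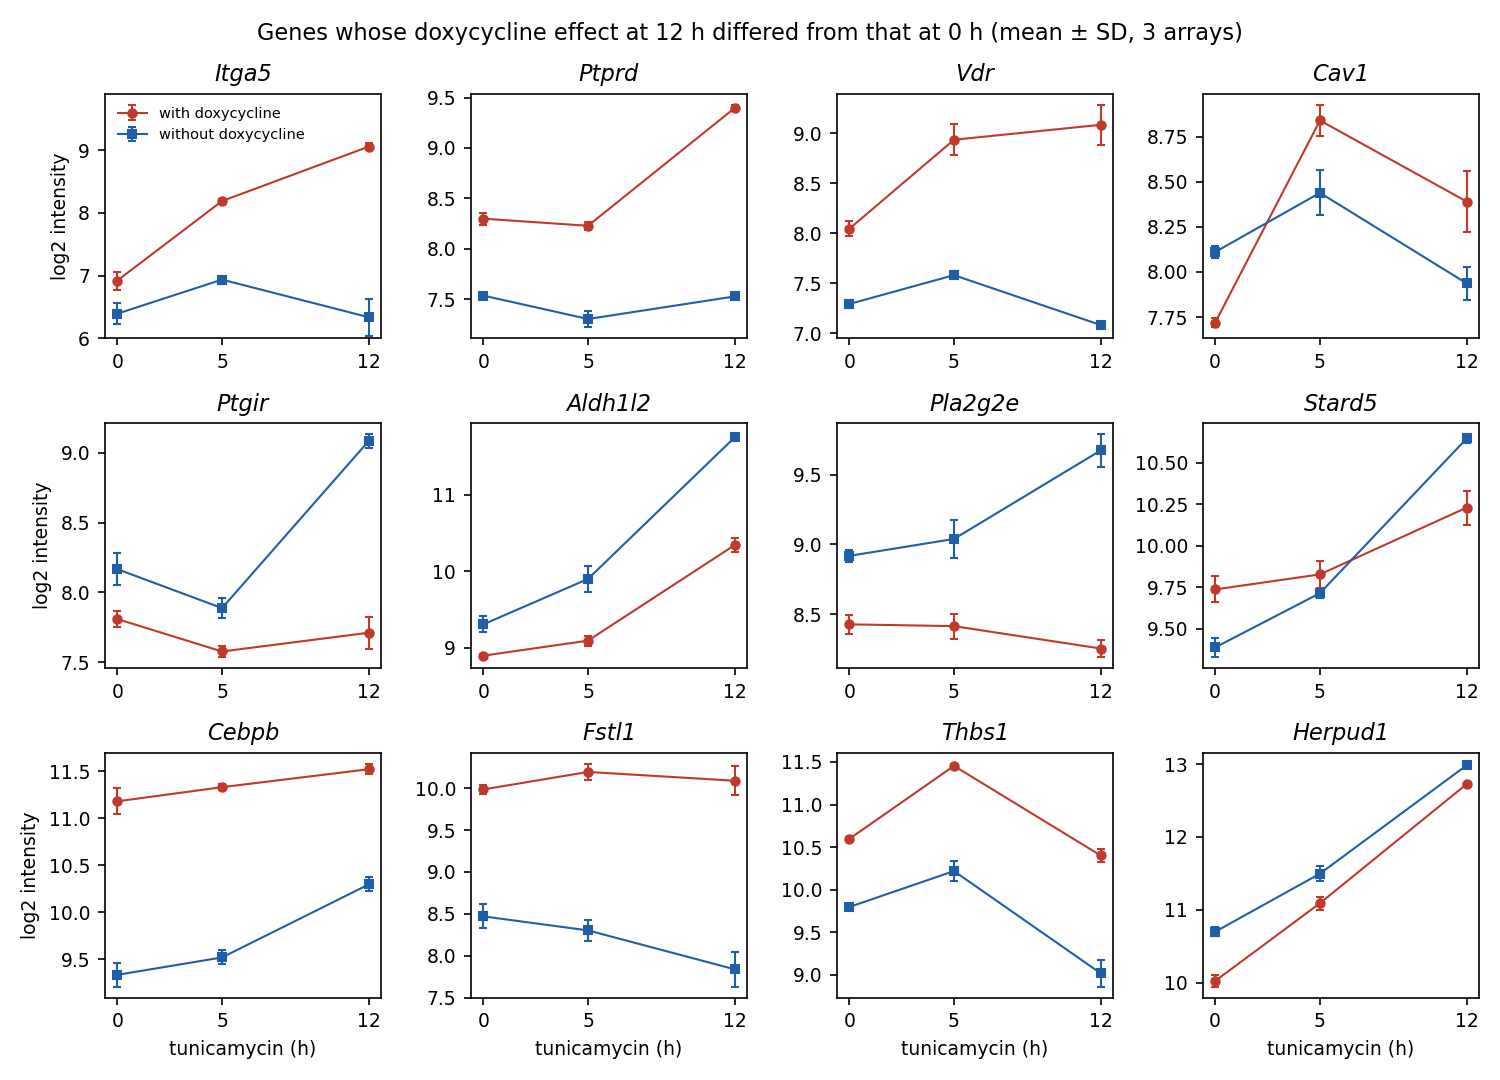
Group means of log2 intensity at 0, 5 and 12 h of tunicamycin, with doxycycline (red circles) and without (blue squares), for 12 genes whose doxycycline effect at 12 h differed from that at 0 h (limma's adjusted p under 0.05); bars are the SD of 3 arrays. The gap widens for Itga5, Ptprd and Vdr, changes sign for Cav1 and Stard5, and narrows for Cebpb and Herpud1.

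Gene groups held their change to different degrees. Pigment synthesis genes were lower at each time, with 10, 11 and 11 of 14 called lower at 0, 5 and 12 h and medians of -0.27, -0.34 and -0.44. G1/S genes were called lower in 27, 37 and 38 of 48. Mitosis genes were called lower in 1, 25 and 37 of 43, and the difference from 0 h was called for 7 of them at 12 h, among them Plk1, Kif2c and Ccna2. Ribosome biogenesis genes were called lower in 25, 4 and 10 of 35, with medians of -0.25, -0.08 and -0.08, and the difference was called for 4 of them at 12 h (Tsr1, Noc3l, Utp20 and Nop14). ER chaperone genes were called lower in 10, 1 and 0 of 26 and higher in 1, 2 and 8. The difference was called for 9 of them at 12 h, among them Fkbp11 (-0.48 at 0 h, 0.15 at 12 h) and Dnajb9 (-0.20 at 0 h, 0.30 at 12 h). SRF contractile genes were called higher in 12, 16 and 15 of 23. At 5 h the difference from 0 h was called for 0 genes of the pigment, G1/S, mitosis, ribosome biogenesis and ER chaperone lists and for 2 of the SRF list, of 6 genes in all.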

How the data were processed

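Biotin-labelled total RNA was read, per the labels, on Affymetrix arrays of 1 colour. The authors deposited log2 intensities summarised by RMA with Partek, per the submitters' processing notes; their genome build was not given in the sources used here. Of 35557 probe sets, 21789 with a single symbol were kept, and the brightest represented each of 19938 genes; 1621 with several and 12147 with none were tested apart. Groups came from the labels. limma 3.58.1 (R 4.3.3) fitted the 6 group means over all 18 arrays, with Benjamini-Hochberg adjustment over all genes. The 6 group means share 12 residual degrees of freedom, and the number of arrays limits the precision. RMA understates changes of dim genes.

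The main fit did not pair arrays by experiment number. Deviations of the 45 same-numbered pairs had a median correlation of 0.04, from -0.50 to 0.50, with 14 above 0.1. Pairs of different numbers had a median of -0.01. The doxycycline and vehicle arrays of experiments 1, 2 and 3 correlated at 0.09, 0.10 and 0.05. These values do not settle whether arrays of an experiment share a deviation. The members and the 50 gene lists were chosen with earlier results of these data known. Named were the 25 largest rises and falls among called genes of the same sign in all experiments (predicted, clone, small RNA, receptor and histone names aside), up to 8 called members a list, all members of lists up to 15, the lineage, C/EBP and stress factors given above, and genes whose effect differed most by time; other members are examples chosen after their values were seen. The fit was tested on simulated data. The alternatives were other normalizations, filters, variance models, probe set rules, a replicate block and left-out arrays.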

Additional observations from a re-analysis of the deposited data

Results flagged for a closer look

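The doxycycline effect with tunicamycin differed from that without it, by limma's test of the difference itself (adjusted p under 0.05), in 59 of the 371 genes chosen by the naming rule. The change of effect between 12 and 0 h was above 1 log2 unit for Itga5 (2.19), Vdr (1.25), Ptprd (1.11) and, downward, Ptgir (-1.02). Further gains were those of Cav1 (0.85, and 0.79 at 5 h), Suox (0.83), Fstl1 (0.74), Jag1 (0.70), Jam2 (0.68), Pwwp3b (0.64, and 0.73 at 5 h), Thbs1 (0.58), Cbr2 (0.53) and Lifr (0.43). In Abca12 (0.55), Herpud1 (0.42), Sema3d (0.41) and Mcoln2 (0.41) a positive difference offset part of a fall at 0 h. Pde4b (0.39) changed sign, from -0.20 at 0 h to 0.20 at 5 h and 0.19 at 12 h, each called. Negative differences were those of Aldh1l2 (-0.9995), Pla2g2e (-0.93), Cdsn (-0.77), Stard5 (-0.77), Serpinf1 (-0.65), Cebpb (-0.62), Slc24a4 (-0.60), Ano3 (-0.60) and Insc (-0.46).

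Further differences between 12 and 0 h fell in several gene groups. Among melanocyte lineage genes they were negative for Mlph (-0.51), Rab27a (-0.49), Erbb3 (-0.48), Pmel (-0.48) and Sox10 (-0.32). Among ER folding genes they were positive for Fkbp11 (0.63), Pdia5 (0.61), Creld2 (0.47), Pdia6 (0.45), Txndc11 (0.44) and Hyou1 (0.42), each of which had fallen at 0 h. Positive differences were also those of S100a6 (0.83), Postn (0.62), Zmat3 (0.48), Il1rap (0.43), Tsr1 (0.39), Vcl (0.37), Ifitm3 (0.35), Sik1 (0.34), Actn1 (0.31), Slc30a7 (0.30) and Mrpl50 (0.27). Negative ones were those of Isg20 (-0.83), Atf3 (-0.82), Nupr1 (-0.61), Pck2 (-0.57), S100b (-0.42), Ncam1 (-0.41), Itgb5 (-0.41), Fdft1 (-0.34), Slc6a9 (-0.33) and Cdk2 (-0.31).

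Outside the named genes, 94 probe sets that list no symbol or more than 1 were called. Probe sets 10348902 and 10348896, each listed with 3 symbols and so not named, changed more than any named gene. Which transcript they read, and whether it is that of a mouse gene, was not tested, so their values describe the probe sets alone. The first read 10.52, 10.61 and 10.55 after doxycycline, against 7.23, 6.99 and 7.40 after vehicle, a 10.2-fold difference (adjusted p = 3.33e-09). The second differed by 3.27 on the log2 scale, or 9.66-fold. Both kept a difference above 2 at 5 h (3.48 and 3.32) and 12 h (2.66 and 2.67). Probe set 10514185, which has no symbol, was lower by 1.52 after doxycycline, at 5.87 against 7.40 after vehicle (adjusted p = 0.0160).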

How the results depend on the processing

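All 50 of the largest changes, and 156 of 303 called named genes, kept their call under every alternative other than the one added after seeing the data, and 0 of the 303 reversed; 8 of 68 uncalled named genes passed under at least 1. The counts depended on the settings, and the cause was not tested. Fitting the compared groups alone called 1464 higher (974 in the fit over all arrays) and 2 differing at 5 h (6). Setting array medians equal called 587 higher, 1761 lower and 15 differing at 5 h. A variance trend with robust estimation called 27 differing at 5 h and 567 at 12 h (367). Array weights called 3631 (1705 higher, 1926 lower), with 119 and 777 differing at 5 and 12 h. Leaving out arrays or experiments gave 652 to 1639 calls (340 to 728 higher, 312 to 929 lower), 0 to 3 differing at 5 h and 39 to 380 at 12 h. Without the 2 tunicamycin arrays that stand apart, an alternative added after seeing the data, 2558 were called. With the experiment number as a replicate block 2256 were called (1019 higher, 1237 lower), and 8 and 401 differed at 5 and 12 h. List medians changed sign for 9 lists with array medians set equal and 4 with quantile normalization repeated, none above 0.05 in size. Signal near background limits 48 called genes, whose higher group mean was at or below the silent-gene level.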
